A study of Homo sapiens with 6 samples.

Results

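The histone lysine methyltransferases and demethylases are the enzymes that add methyl groups to, or take them off, lysines of histone tails. They were chosen by gene symbol alone: the KMT, KDM, SETD, SMYD and NSD families, with SETDB1, SETDB2, SUV39H1, SUV39H2, EHMT1, EHMT2, DOT1L, ASH1L, PHF8 and PHF2, and without UTY and KDM5D. The deposited gene table held 48114 rows, and 52 of them matched. RNA was sequenced from TC-71 cells, a line from a human Ewing sarcoma labelled wild type, after 16 h with the PI3K and mTOR inhibitor BEZ235 dissolved in dimethyl sulfoxide (DMSO), or with DMSO alone. Each of the 2 groups had 3 libraries, which the labels call biological replicates. The sources used here give no dose of BEZ235, and all values come from 1 cell line without any change of genotype between the groups. The comparison asks which of these enzymes' transcripts differ when PI3K and mTOR are inhibited.

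Methyl groups on histone lysines are read by other proteins, and their effect depends on the residue. Methylation of lysine 4 of histone H3 (H3K4), H3K36 and H3K79 is found on active genes, that of H3K9 on silent chromatin, H3K27 methylation on genes silenced by Polycomb, and that of H4K20 is tied to the cell cycle and chromosome compaction. Most writers carry a SET domain and use S-adenosylmethionine as the methyl donor, while erasers are either flavin-dependent amine oxidases (the LSD family) or dioxygenases with a JmjC domain, which need iron and 2-oxoglutarate. In Ewing sarcoma LSD1, encoded by KDM1A, has been studied as a partner of the EWSR1-FLI1 fusion protein and as a drug target.

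Sequences just before the start of 6 members are printed as examples. NSD1 and NSD2 are related enzymes that moved in opposite directions, and EHMT2 and SETDB1 are the H3K9 writers with the largest rises. KMT5A and KDM4A are a writer and an eraser that fell. Each of the 6 holds a motif searched. SETD9, the largest rise, and SUV39H1, which fell more than KMT5A, held none and are not printed. The printed sequences are from RefSeq on GRCh38.p14, read along the gene, 250 bases before to 20 bases after the annotated start. Capitals mark letters of the motifs searched, described after the values.
NSD2, chr4:1871143-1871412, + strand: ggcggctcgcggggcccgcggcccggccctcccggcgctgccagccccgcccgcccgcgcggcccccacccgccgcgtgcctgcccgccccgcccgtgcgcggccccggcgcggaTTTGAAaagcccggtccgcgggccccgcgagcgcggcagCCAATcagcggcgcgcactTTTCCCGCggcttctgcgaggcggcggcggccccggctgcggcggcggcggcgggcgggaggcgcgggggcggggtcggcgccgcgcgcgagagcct
NSD1, chr5:177131548-177131817, + strand: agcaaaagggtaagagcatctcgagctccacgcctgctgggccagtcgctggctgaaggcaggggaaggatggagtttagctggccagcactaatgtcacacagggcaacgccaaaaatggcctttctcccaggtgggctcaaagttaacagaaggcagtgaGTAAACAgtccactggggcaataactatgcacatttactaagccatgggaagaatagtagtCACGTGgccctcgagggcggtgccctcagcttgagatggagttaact
EHMT2, chr6:31897679-31897948, - strand: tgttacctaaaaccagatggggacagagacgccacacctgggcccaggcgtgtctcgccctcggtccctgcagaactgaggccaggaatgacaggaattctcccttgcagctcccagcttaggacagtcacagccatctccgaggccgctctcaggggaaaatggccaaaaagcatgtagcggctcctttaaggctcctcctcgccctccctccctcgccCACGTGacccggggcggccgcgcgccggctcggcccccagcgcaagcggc
SETDB1, chr1:150926013-150926282, + strand: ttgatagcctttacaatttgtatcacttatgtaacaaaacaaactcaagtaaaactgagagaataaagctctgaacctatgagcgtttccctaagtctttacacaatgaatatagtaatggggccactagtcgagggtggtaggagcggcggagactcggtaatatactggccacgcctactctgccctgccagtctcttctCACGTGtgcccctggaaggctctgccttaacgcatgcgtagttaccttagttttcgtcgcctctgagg
KMT5A, chr12:123383882-123384151, + strand: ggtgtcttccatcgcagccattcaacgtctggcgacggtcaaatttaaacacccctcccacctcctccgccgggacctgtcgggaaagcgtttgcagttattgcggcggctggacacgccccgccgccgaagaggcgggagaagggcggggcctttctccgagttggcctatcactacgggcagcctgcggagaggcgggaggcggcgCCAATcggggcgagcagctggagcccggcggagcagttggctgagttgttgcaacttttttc
KDM4A, chr1:43649899-43650168, + strand: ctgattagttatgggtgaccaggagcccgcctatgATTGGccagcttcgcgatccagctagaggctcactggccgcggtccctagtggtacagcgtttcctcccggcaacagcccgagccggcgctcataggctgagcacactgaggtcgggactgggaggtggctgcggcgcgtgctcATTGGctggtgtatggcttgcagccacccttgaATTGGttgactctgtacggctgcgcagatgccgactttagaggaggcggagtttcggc

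The recovered sequencing reads numbered 184790722 to 233767211 per library, and across genes Pearson's r was 0.982 to 0.987 for libraries treated alike and 0.927 to 0.939 otherwise. No library was a copy of another, since replicates differed from each other beyond sampling noise (mean chi-square per gene 16.75 to 146.79). All 11 Ewing sarcoma markers, CD99, NKX2-2 and NR0B1 among them, were detected and tested. CCK was the lowest of them, with means of 75.1 with DMSO and 27.0 with BEZ235. Genes that mark other cell types were absent in part only. Endothelial markers summed to 2.06 to 21.6 normalized counts with DMSO and 8.11 to 13.8 with BEZ235, and CD3E, HBB and KRT5 were at 0 in every library. COL1A1, CD68 and KRT8, markers of fibroblasts, macrophages and epithelia, were expressed. HBA1, of the blood list, had 320 to 717 with DMSO and 820 to 899 with BEZ235. Summed levels of the fibroblast list were 9327 to 10584 with DMSO and 5806 to 6299 with BEZ235, those of the epithelial list 1698 to 1743 and 1099 to 1325, and those of the blood list 2525 to 3998 and 2300 to 2426, and their part in the results below was not tested. Normalized counts, the authors' read counts divided by a factor per library, are the unit of every value below unless a value is given per kb of exons. A gene is called when limma's adjusted p on log2(normalized count + 1) is under 0.05, over 23923 rows tested, and fold changes are on that log2 scale, with BEZ235 minus DMSO.

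Most of the set moved with BEZ235, and it moved both ways. Of the 50 members tested, 38 (76.0%) were called, 24 higher and 14 lower, against a background of 66.3% of all tested rows, 33.1% higher and 33.2% lower. A change of at least 1.5-fold was found for 20 members (40.0%; 43.5% of all tested rows), 14 higher and 6 lower (21.3% and 22.2% of all rows). At least 2-fold were 10 members, 7 higher and 3 lower, against 26.3% of all rows, 12.7% higher and 13.6% lower. The share past 1.5-fold was thus close to that of all rows. The groups did not overlap for 42 members (84.0%; 70.9% of all rows). Over the members the median log2 fold change was 0.14, over all rows tested it was 0.00, and the median size of the change, whatever its sign, was 0.42 against 0.60. Members had a median normalized count of 3701, against 712 over all tested rows. Writers and related SET proteins were called for 27 of 32 tested, 17 higher and 10 lower, and erasers for 11 of 18, 7 higher and 4 lower. KDM4E and SMYD1 were too low to be tested: KDM4E had 8.64, 5.16 and 5.01 with DMSO and 0 in each BEZ235 library, and SMYD1, a muscle protein, had 1.08, 0 and 8.35 with DMSO and 0 in each BEZ235 library. At this depth a count of 0 allows 3 reads, which are 2.50 to 3.47 normalized counts depending on the library, a limit that covers counting error only.

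**Figure D1:**
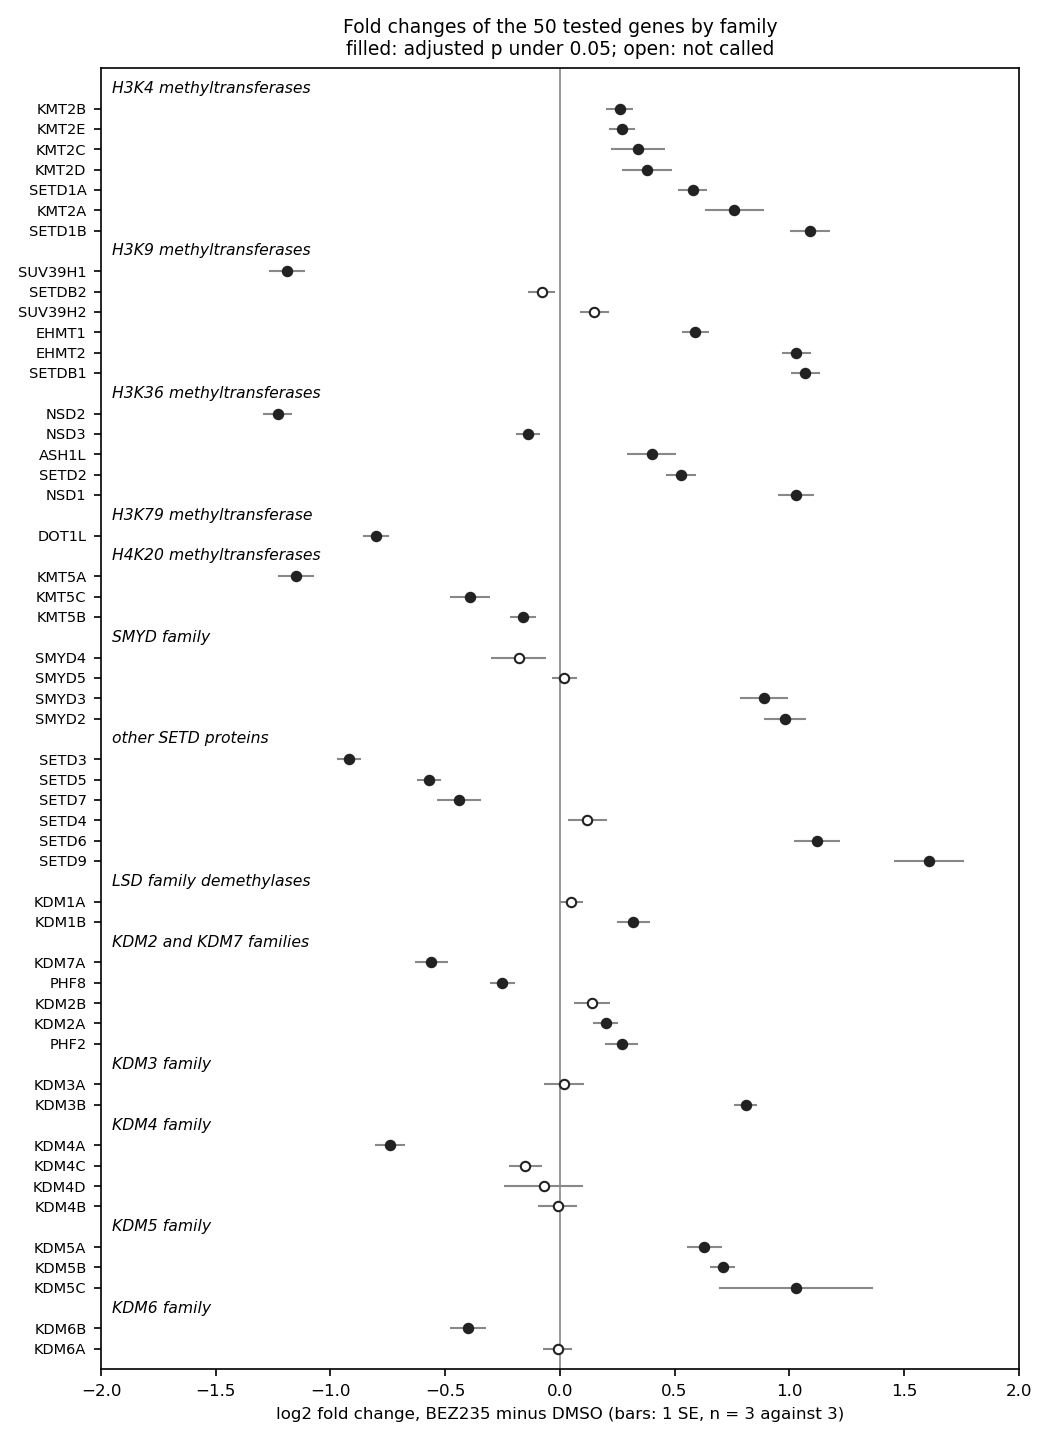
Log2 fold change (BEZ235 minus DMSO, horizontal axis) of each of the 50 tested members, ordered by family, with bars of 1 SE and open points for genes not called. All 7 genes listed as H3K4 methyltransferases and all 3 KDM5 demethylases lie to the right of 0. All 3 H4K20 methyltransferases lie to the left, while the H3K9 and H3K36 writers lie on both sides. SETD7, which also methylates H3K4, is placed with the other SETD proteins and lies to the left.

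All 7 genes of the KMT2 and SETD1 families, listed here as the H3K4 writers, were called higher (median log2 fold change 0.38). Over all tested rows 33.1% were called higher. Of the 7, 2 rose by at least 1.5-fold, where 21.3% of all rows did. SETD7, which also methylates H3K4 and is given below with the other SETD proteins, was called lower, at -0.44. The calls of 3 of the 7, given below, ended with total-count scaling, and no test of the group was made. SETD1B, a catalytic subunit of the complexes that place most H3K4 trimethylation, had 752, 899 and 807 in the DMSO libraries and 1762, 1823 and 1629 in the BEZ235 libraries. It rose 2.12-fold, a log2 fold change of 1.09 (SE 0.089, adjusted p = 1.11e-06). KMT2A, the MLL protein of leukaemia translocations, had 1250, 992 and 1111 in the DMSO libraries and 1542, 2170 and 2004 in the BEZ235 libraries, a log2 fold change of 0.76 (SE 0.128, adjusted p = 0.000305). Every BEZ235 library of both genes lay above every DMSO library. The row of KMT2A overlaps that of TTC36-AS1, which had a log2 fold change of 0.74 and 85.4% of its level, and whether the counts keep strand is not stated, so reads could be shared.

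SETD1A, the partner form of SETD1B, had a log2 fold change of 0.58 (SE 0.0632, adjusted p = 1.08e-05), with 3571 to 3894 with DMSO and 5275 to 5881 with BEZ235; its whole row lies within that of MAPK3, which had one of 0.24 and 156.1% of its level. Smaller rises were those of KMT2E, at 0.27 (SE 0.0571, adjusted p = 0.00159), a family member with little histone methyltransferase activity of its own, and KMT2B, at 0.26 (SE 0.0606, adjusted p = 0.00264). KMT2D and KMT2C, which mark enhancers with H3K4 monomethylation, had log2 fold changes of 0.38 (SE 0.109, adjusted p = 0.0102) and 0.34 (SE 0.119, adjusted p = 0.0255). KMT2C was the only H3K4 writer whose groups overlapped, with 1747 to 2198 with DMSO and 2045 to 2819 with BEZ235. BEZ235 replicate 1 was the lowest of its group for KMT2A, KMT2C and KMT2D.

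The smaller of these rises depended on single choices. With total-count scaling KMT2B lost its call (adjusted p = 0.051; 0.000362 to 0.051 over all alternatives), as did KMT2C (adjusted p = 0.0991) and KMT2D (adjusted p = 0.0793). Without BEZ235 replicate 2 or 3 the adjusted p of KMT2C was 0.12 or 0.0946, and without DMSO replicate 2 or 3 it was 0.0663 or 0.0717 (0.00269 to 0.12 over all alternatives). For KMT2D it was 0.0519 without BEZ235 replicate 2 and 0.0567 without BEZ235 replicate 3 (0.000181 to 0.0793 over all alternatives). Limma without its trend also ended the calls of KMT2C (adjusted p = 0.105) and KMT2D (adjusted p = 0.0659).

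Writers of H3K9 methylation split by enzyme, with 3 of 6 higher, 1 lower and 2 not called. For comparison, 33.1% of all tested rows were called higher and 33.2% lower. EHMT2, also known as G9a, which places mono- and dimethylation on H3K9 (chr6:31879759-31897698 in hg38), had 11313, 12231 and 13085 in the DMSO libraries and 24955, 26018 and 23817 in the BEZ235 libraries. It rose 2.04-fold, a log2 fold change of 1.03 (SE 0.0626, adjusted p = 1.1e-07). SETDB1, which places trimethylation on H3K9 at retroelements together with TRIM28 (chr1:150926263-150964737), had 2524, 2368 and 2503 in the DMSO libraries and 5350, 5330 and 4862 in the BEZ235 libraries, a log2 fold change of 1.07 (SE 0.0623, adjusted p = 7.88e-08). For both genes each BEZ235 library held well above every DMSO library. EHMT1, the partner of EHMT2 in one enzyme complex, had 4290, 4466 and 4110 in the DMSO libraries and 6534, 6727 and 6108 in the BEZ235 libraries, a log2 fold change of 0.59 (SE 0.0595, adjusted p = 5.89e-06), again without overlap.

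SUV39H1, which places H3K9 trimethylation at pericentromeric heterochromatin (chrX:48695554-48709020), went the other way. It had 1306, 1321 and 1293 in the DMSO libraries and 555, 588 and 569 in the BEZ235 libraries, and so fell 2.29-fold, a log2 fold change of -1.19 (SE 0.0799, adjusted p = 2.29e-07). All 3 BEZ235 libraries were below all 3 DMSO libraries. Its close relative SUV39H2 was not called, with a log2 fold change of 0.15 (SE 0.0638, adjusted p = 0.0579) and non-overlapping ranges of 1810 to 1858 with DMSO and 1992 to 2125 with BEZ235. It was called with TMM scaling (adjusted p = 0.0417), with quantile normalization (adjusted p = 0.0129) and by edgeR (adjusted p = 0.0422), and ran from 0.0129 to 0.528 over all alternatives. The row of SUV39H2 shares 84.2% of its span with DCLRE1C, which had a log2 fold change of 1.04 and 38.1% of its level. SETDB2 was not called at -0.08 (SE 0.0576, adjusted p = 0.251), although its groups did not overlap, and it was called lower with total-count scaling (adjusted p = 0.0477; 0.0477 to 0.555 over all alternatives).

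The H3K36 writers held the sharpest contrast among close relatives. NSD2, which places dimethylation on H3K36 and is overexpressed in a form of multiple myeloma (chr4:1871309-1982203), had 28998, 34194 and 30764 in the DMSO libraries and 13584, 13466 and 12977 in the BEZ235 libraries. It fell 2.34-fold, a log2 fold change of -1.23 (SE 0.0632, adjusted p = 3.18e-08), the largest fall in the set. NSD1, an enzyme of the same activity that is mutated in Sotos syndrome (chr5:177133015-177300213), had 6052, 7291 and 5905 in the DMSO libraries and 12579, 13632 and 13072 in the BEZ235 libraries. It rose 2.05-fold, a log2 fold change of 1.03 (SE 0.0779, adjusted p = 5.67e-07). Neither gene's groups overlapped. NSD3, the third of this family, had a log2 fold change of -0.14 (SE 0.0517, adjusted p = 0.0341) and 8008 to 8456 with DMSO and 7186 to 7591 with BEZ235. That call was lost with quantile normalization (adjusted p = 0.0592), without the trend (adjusted p = 0.0783) and without BEZ235 replicate 1 or 3 or DMSO replicate 2 or 3 (adjusted p = 0.0809, 0.0899, 0.0712 and 0.0706; 0.00678 to 0.0899 over all alternatives). The NSD3 row overlaps that of DDHD2, at -0.27 and 50.3% of its level.

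SETD2, the main enzyme of H3K36 trimethylation, had 6322, 7001 and 6591 in the DMSO libraries and 8995, 10357 and 9398 in the BEZ235 libraries. Its log2 fold change was 0.53 (SE 0.0653, adjusted p = 2.92e-05), with all BEZ235 libraries above all DMSO libraries. ASH1L, another H3K36 dimethyltransferase, had a log2 fold change of 0.40 (SE 0.106, adjusted p = 0.00626) and 1565 to 2072 with DMSO and 2126 to 2556 with BEZ235. Its row shares 39.8% of its span with that of SLC50A1, at -0.25 and 275.8% of its level. Summed per kb of exons, the 5 H3K36 writers stood at 3324 ± 213 with DMSO and 3130 ± 128 with BEZ235 (SD, n = 3), with overlapping libraries of 3164 to 3565 and 3038 to 3276.

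DOT1L, the H3K79 methyltransferase, which has no SET domain and is a partner of MLL fusion proteins in leukaemia, fell. It had 15104, 15668 and 15426 in the DMSO libraries and 8624, 9462 and 8418 in the BEZ235 libraries, a log2 fold change of -0.80 (SE 0.0563, adjusted p = 3.25e-07). The libraries of the groups were far apart. Its row overlaps that of PLEKHJ1, which had 74.3% of its level and a log2 fold change of 0.20.

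All 3 writers of H4K20 methylation were called lower, where 33.2% of all tested rows were. KMT5A, which places monomethylation on H4K20 and whose protein is turned over through the cell cycle (chr12:123383773-123409353), had 6412, 7985 and 7076 in the DMSO libraries and 3221, 3369 and 3047 in the BEZ235 libraries. It fell 2.22-fold, a log2 fold change of -1.15 (SE 0.0797, adjusted p = 2.97e-07), and all BEZ235 libraries held far less than any DMSO library. KMT5C, which with KMT5B adds further methyl groups to the same residue, had a log2 fold change of -0.39 (SE 0.0867, adjusted p = 0.00208) and 1002 to 1034 with DMSO and 710 to 815 with BEZ235. KMT5B had a log2 fold change of -0.16 (SE 0.0557, adjusted p = 0.0269), a call lost with quantile normalization (adjusted p = 0.119), without the trend (adjusted p = 0.0503) and without BEZ235 replicate 1 or 3 or DMSO replicate 3 (adjusted p = 0.064, 0.0762 and 0.0904; 0.00557 to 0.119 over all alternatives).

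Markers of dividing cells fell in the same libraries. Of 15 cell cycle markers, CDK1, CCNA2 and MKI67 among them, 14 were called lower, where 33.2% of all tested rows were, and 0 higher. Their median log2 fold change was -1.47. Their normalized counts summed to 207255 to 227222 with DMSO and 84175 to 90470 with BEZ235. In a culture measured in bulk, fewer cells in a phase and less RNA per cell cannot be told apart. The part of this shift in the falls of KMT5A, SUV39H1 and NSD2 was not tested.

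Of the SMYD family, whose SET domain is split by a zinc finger, 2 of 4 tested rose and 2 were not called. For comparison, 33.1% of all tested rows were called higher. SMYD2, which methylates histones and also p53, had 1149, 1453 and 1200 in the DMSO libraries and 2364, 2500 and 2586 in the BEZ235 libraries, a log2 fold change of 0.98 (SE 0.0923, adjusted p = 3.49e-06). SMYD3, an enzyme that also methylates the kinase MAP3K2, had 1400, 1888 and 1685 in the DMSO libraries and 3126, 3229 and 2808 in the BEZ235 libraries, a log2 fold change of 0.89 (SE 0.104, adjusted p = 1.89e-05). Neither overlapped between the groups. SMYD5 had a log2 fold change of 0.02 (SE 0.0527, adjusted p = 0.715) with overlapping groups, and SMYD4, the lowest of the 4, had a log2 fold change of -0.18 (SE 0.121, adjusted p = 0.213), which was called without the trend (adjusted p = 0.0312; 0.0312 to 0.389 over all alternatives).

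The other SETD proteins, several of which act on substrates other than histones, held both the largest rise of the set and a strong fall. SETD9 had 288, 452 and 359 in the DMSO libraries and 1216, 1027 and 1066 in the BEZ235 libraries. It rose 3.05-fold, a log2 fold change of 1.61 (SE 0.152, adjusted p = 3.47e-06). SETD6, which methylates the NF-kB subunit RELA, had 601, 499 and 517 in the DMSO libraries and 1242, 1165 and 1095 in the BEZ235 libraries, a log2 fold change of 1.12 (SE 0.1, adjusted p = 2.34e-06). In both, the lowest BEZ235 library was above the highest DMSO library. The SETD6 row lies wholly within that of CSNK2A2, at 0.37, and partly within that of CNOT1, at -0.50, with 985.8% and 1153.5% of its level. SETD9 shares 47.3% of its span with MIER3, at 0.14 and 237.0% of its level.

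SETD3, known as the histidine methyltransferase of actin, had 8577, 8790 and 8344 in the DMSO libraries and 4699, 4476 and 4385 in the BEZ235 libraries. It fell 1.9-fold, a log2 fold change of -0.92 (SE 0.0533, adjusted p = 7.47e-08), with no overlap. SETD5 had a log2 fold change of -0.57 (SE 0.0515, adjusted p = 2.36e-06), and SETD7, which places a single methyl group on H3K4 and on several other proteins, had a log2 fold change of -0.44 (SE 0.0946, adjusted p = 0.00183). Their ranges were 11691 to 12654 with DMSO and 8121 to 8411 with BEZ235 for SETD5 and 4206 to 5589 with DMSO and 3360 to 3591 with BEZ235 for SETD7. SETD4 was not called at 0.12 (SE 0.0839, adjusted p = 0.231), and its row overlaps that of CBR1, at -0.54, which had 3559.1% of its level.

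**Figure D2:**
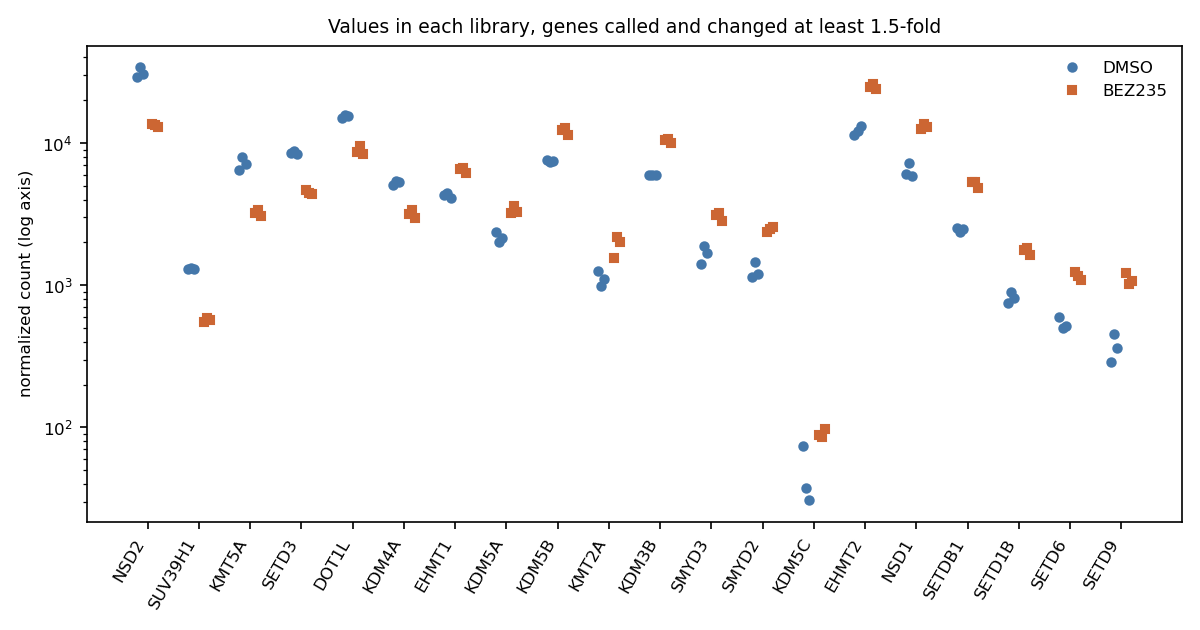
Normalized count (log axis) in each of the 3 DMSO libraries (circles) and 3 BEZ235 libraries (squares) of the 20 members called and changed at least 1.5-fold, ordered by fold change. The 6 genes at the left, NSD2 to KDM4A, have all BEZ235 libraries below the DMSO libraries, the other 14 have them above, and KDM5C stands apart by its low level.

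Among the erasers KDM1A was not called. KDM1A, or LSD1, which removes mono- and dimethylation from H3K4 within the CoREST and NuRD complexes, had 33143, 32894 and 33938 in the DMSO libraries and 35244, 35353 and 32890 in the BEZ235 libraries. The groups overlapped, with a log2 fold change of 0.05 (SE 0.0505, adjusted p = 0.41), and the value was -0.05 with total-count scaling, while quantile normalization called it higher (adjusted p = 0.011; 0.011 to 0.673 over all alternatives). KDM1B, its relative LSD2, had a log2 fold change of 0.32 (SE 0.072, adjusted p = 0.00246) and 1980 to 2050 with DMSO and 2322 to 2727 with BEZ235, with a row that overlaps that of DEK, at -1.08 and 661.3% of its level.

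The KDM2 and KDM7 families act on H3K36, H3K9 and, for PHF8, H4K20. They were called for 4 of 5 members, 2 each way, and none reached 1.5-fold. For comparison, 66.3% of all tested rows were called, and 43.5% were called and changed at least 1.5-fold. KDM7A had a log2 fold change of -0.56 (SE 0.0706, adjusted p = 3.43e-05) and 1678 to 1777 with DMSO and 1151 to 1228 with BEZ235. PHF8 had a log2 fold change of -0.25 (SE 0.0536, adjusted p = 0.00151), with 5122 to 5285 with DMSO and 4210 to 4466 with BEZ235. PHF2 had a log2 fold change of 0.27 (SE 0.0728, adjusted p = 0.0065) and KDM2A had a log2 fold change of 0.20 (SE 0.0538, adjusted p = 0.00616), and both calls were lost with total-count scaling (adjusted p = 0.111 for PHF2, 0.000506 to 0.111 over all alternatives, and adjusted p = 0.144 for KDM2A, 0.000892 to 0.144 over all alternatives). KDM2B, which brings a Polycomb complex to CpG islands, was not called at 0.14 (SE 0.0784, adjusted p = 0.141) and overlapped between the groups, while without DMSO replicate 2 it was (adjusted p = 0.0384; 0.0384 to 0.7 over all alternatives). Its row overlaps an unnamed row with 80.2% of its level, at 0.23.

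In the KDM3 family, which removes mono- and dimethylation from H3K9, KDM3B rose and KDM3A was not called. KDM3B had 5967, 6009 and 5955 in the DMSO libraries and 10552, 10739 and 10075 in the BEZ235 libraries. It rose 1.75-fold, a log2 fold change of 0.81 (SE 0.05, adjusted p = 1.29e-07), and the DMSO libraries differed from each other by far less than the groups did. KDM3A, reported to promote growth of Ewing sarcoma cells, had 11197, 11219 and 10802 in the DMSO libraries and 11804, 12617 and 9581 in the BEZ235 libraries, a log2 fold change of 0.02 (SE 0.0873, adjusted p = 0.822). Its BEZ235 libraries lay on both sides of the DMSO libraries.

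Only KDM4A was called in the KDM4 family, which removes trimethylation from H3K9 and H3K36. KDM4A (chr1:43650134-43705518) had 5071, 5450 and 5330 in the DMSO libraries and 3144, 3380 and 2961 in the BEZ235 libraries. It fell 1.67-fold, a log2 fold change of -0.74 (SE 0.0645, adjusted p = 1.78e-06), without overlap. Its row overlaps that of KDM4A-AS1, at -0.52 and 70.7% of its level. Whether the counts keep strand is not stated, so reads of the antisense gene could be shared. KDM4B had a log2 fold change of -0.01 (SE 0.0853, adjusted p = 0.906) and KDM4D had a log2 fold change of -0.07 (SE 0.173, adjusted p = 0.751), both with overlapping groups. KDM4C had a log2 fold change of -0.15 (SE 0.0703, adjusted p = 0.0786), with 1837 to 1972 with DMSO and 1602 to 1763 with BEZ235, and was called lower with total-count scaling (adjusted p = 0.0132; 0.0132 to 0.253 over all alternatives).

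The KDM5 family, erasers of H3K4 trimethylation, rose in all 3 members, each by at least 1.5-fold. Over all tested rows 33.1% were called higher, and 21.3% were called and at least 1.5-fold higher. KDM5B had 7539, 7315 and 7459 in the DMSO libraries and 12412, 12719 and 11385 in the BEZ235 libraries, a log2 fold change of 0.71 (SE 0.0556, adjusted p = 7.83e-07). KDM5A, a partner of the retinoblastoma protein, had 2365, 2022 and 2144 in the DMSO libraries and 3213, 3601 and 3252 in the BEZ235 libraries, a log2 fold change of 0.63 (SE 0.0762, adjusted p = 2.64e-05). Neither gene's groups overlapped. KDM5C was near the lower end of what was measured, with 30.9 to 73.5 with DMSO and 85.9 to 97.8 with BEZ235. Its log2 fold change was 1.03 (SE 0.336, adjusted p = 0.0193), and the call was lost without BEZ235 replicate 3 (adjusted p = 0.0628) and without DMSO replicate 3 (adjusted p = 0.0764; 0.00172 to 0.0764 over all alternatives). Summed per kb of exons, the 7 H3K4 writers of the KMT2 and SETD1 families went from 1696 ± 50.5 to 2328 ± 104. The 3 KDM5 genes went from 473 ± 20.8 to 758 ± 39.6 (SD, n = 3 for both). The LSD family, which also acts on H3K4, stood at 6487 ± 94.0 and 6792 ± 288, with overlapping libraries.

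KDM6A and KDM6B remove methyl groups from H3K27, the mark placed by Polycomb. KDM6A, or UTX, had 3945, 4144 and 3616 in the DMSO libraries and 3888, 3918 and 3798 in the BEZ235 libraries, a log2 fold change of -0.01 (SE 0.0634, adjusted p = 0.895). Its groups overlapped. KDM6B, or JMJD3, had 5015, 6101 and 5352 in the DMSO libraries and 4066, 4440 and 3958 in the BEZ235 libraries, a log2 fold change of -0.40 (SE 0.078, adjusted p = 0.000913), with all BEZ235 libraries below the DMSO libraries.

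Close relatives were set against each other within each library, as the log2 ratio of their normalized counts, in 19 pairs within families. Such a ratio leaves out any scaling of a library. In 14 of the 19 pairs the groups did not overlap. Among all tested rows the share was 70.9%, but that is a share of single genes, not of ratios. No share was taken over ratios of other gene pairs, so the count cannot show anything particular to these pairs. With 3 libraries against 3 the exact two-sided permutation test cannot give a p below 0.1, which is the value of each of these 14 pairs (0.136 after Benjamini-Hochberg adjustment over the 19).

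The largest shift was that of NSD2 over NSD1, with log2 ratios of 2.29 ± 0.08 in DMSO and 0.03 ± 0.07 in BEZ235 (SD, n = 3). The difference was -2.26, so the log2 ratio was close to 0 in every BEZ235 library. SUV39H1 over SUV39H2 had log2 ratios of -0.49 ± 0.04 in DMSO and -1.84 ± 0.09 in BEZ235, and SETDB1 over SETDB2 of -0.16 ± 0.07 in DMSO and 0.99 ± 0.06 in BEZ235. The difference was -1.09 for NSD2 over NSD3 and -0.99 for KMT5A over KMT5B. For EHMT2 over EHMT1 it was 0.44, for SETD1B over SETD1A 0.51 and for PHF2 over PHF8 0.53.

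Ratios that overlapped between the groups were those of KMT2C over KMT2D, KDM2B over KDM2A, KDM4C over KDM4B, KDM5B over KDM5A and SMYD3 over SMYD2, with differences from -0.14 to 0.08. In KDM5A with KDM5B and in SMYD2 with SMYD3 both genes were called higher.

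**Figure D3:**
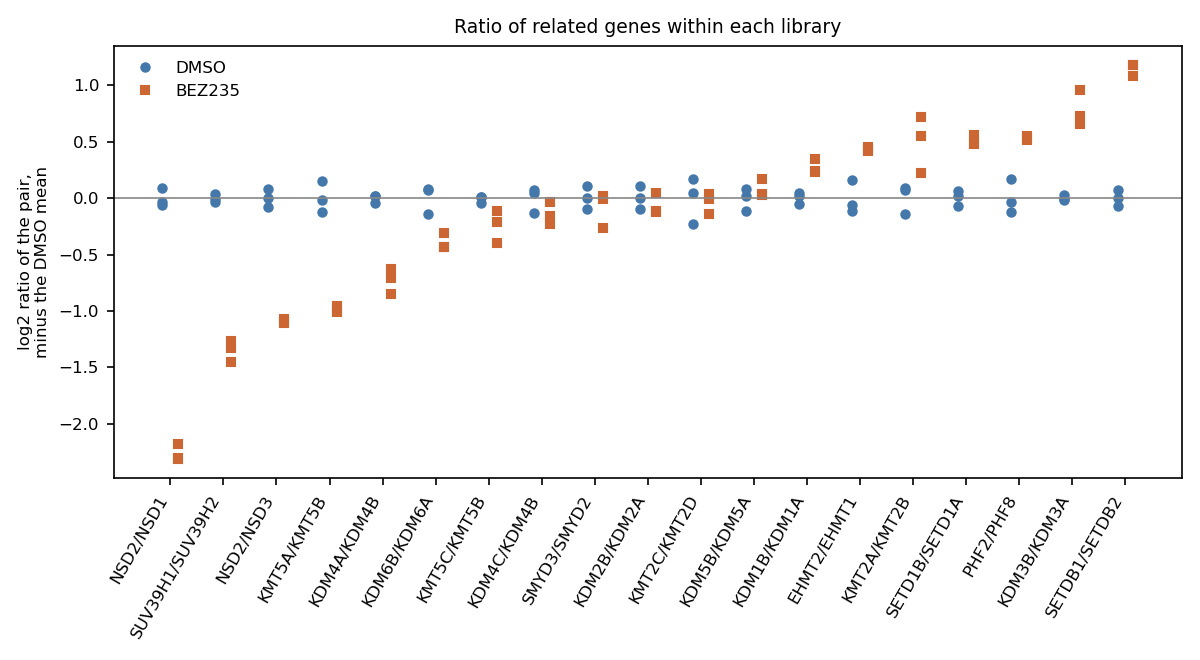
Log2 ratio of 2 related genes within each library, minus the mean of the 3 DMSO libraries (vertical axis), for 19 pairs, with circles for DMSO and squares for BEZ235. NSD2 over NSD1 lies lowest, more than 2 below its DMSO mean, SETDB1 over SETDB2 lies highest, and the 5 pairs whose groups overlap are in the middle.

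Levels of different genes were compared per kb of exons, from the union of GENCODE v29 exons over all annotated transcripts of a gene. Ranks therefore depend on that length, which was 31305 bases for KMT2A. KDM1A was the highest of the 50 tested members in both groups, with 6126 ± 100 with DMSO and 6341 ± 256 with BEZ235 normalized counts per kb (SD, n = 3). EHMT2 came next in both, with 1675 ± 122 with DMSO and 3420 ± 151 with BEZ235. Behind it the order changed: NSD2 went from rank 4 to rank 15, with 1584 ± 134 with DMSO and 675 ± 16.3 with BEZ235, and KMT5A from rank 5 to rank 14, with 1563 ± 172 with DMSO and 702 ± 35.2 with BEZ235. KDM3B moved from rank 13 to rank 4, with 751 ± 3.56 with DMSO and 1313 ± 43.0 with BEZ235, and SETD2 from rank 14 to rank 6. The DMSO levels of EHMT2, SETD3, NSD2, KMT5A and SMYD5 ran from 1675 ± 122 down to 1555 ± 25.8, and the libraries of neighbours in that order overlapped. KDM5C was last in both groups, with 5.41 ± 2.63 with DMSO and 10.4 ± 0.731 with BEZ235, and KMT2A was second to last with DMSO, at 35.7 ± 4.13.

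**Figure D4:**
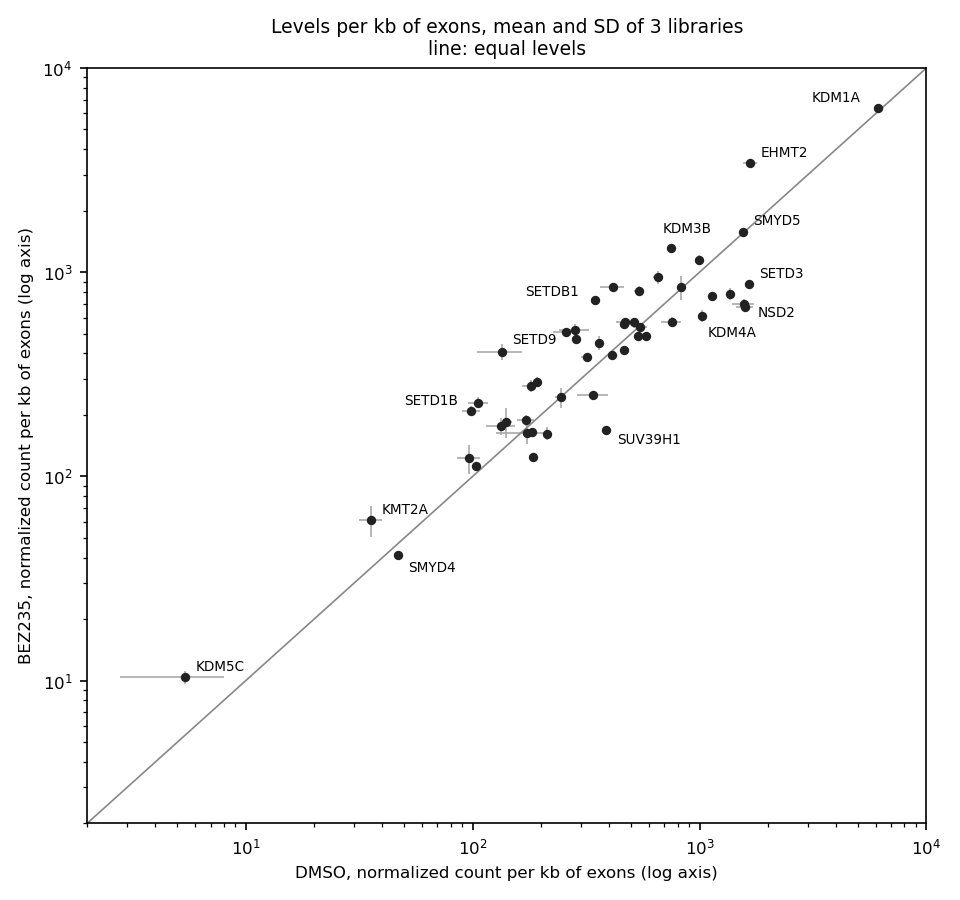
Mean normalized count per kb of exons with DMSO (horizontal) and BEZ235 (vertical), both log axes, for the 50 tested members, with SD over 3 libraries and a line of equal levels. KDM1A sits at the upper right on the line, EHMT2 and KDM3B above it, NSD2, SETD3 and SUV39H1 below it, and KDM5C alone at the lower left.

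Proteins that work with these enzymes were read from lists of context genes, whose counts stand against 33.1% of all tested rows called higher and 33.2% called lower, with a median of 0.00. Of 13 partners in the COMPASS and MLL complexes of the H3K4 writers, some shared and some found in only a few of these complexes, 7 fell and 2 rose, with a median of -0.26. DPY30, a core subunit, fell from 23114 ± 593 to 14511 ± 356 (SD, n = 3), a log2 fold change of -0.67, and PSIP1, a chromatin tether of MLL and menin, had one of -0.62. PAXIP1 and MEN1, which encodes menin, rose by 0.49 and 0.37. The core subunit WDR5 was not called, at -0.11.

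Of 16 tested partners of LSD1, 11 rose and 5 fell, with a median of 0.41. The CoREST proteins that hold LSD1 to its histone deacetylases moved apart: RCOR2 rose from 1664 ± 145 to 3894 ± 199 and RCOR1 fell from 15528 ± 848 to 8781 ± 424. MTA3 of the NuRD complex rose by 1.09 on the log2 scale, and GFI1, a repressor that recruits LSD1, had a log2 fold change of -1.45. KDM1A itself was not called.

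Of 14 readers and partners of H3K9 methylation 7 rose and 6 fell, with a median of 0.12. PPHLN1 of the HUSH silencing complex and LRWD1 rose by 0.84 and 0.74. CBX1, the heterochromatin protein HP1 beta, fell from 70205 ± 2129 to 38464 ± 2324, and UHRF1, which links H3K9 methylation with DNA methylation, from 5536 ± 395 to 3008 ± 68.5. A further list of 10 genes joined partners of DOT1L with elongation proteins of the AFF and ELL families. Of these 10, 6 rose and 1 fell, with a median of 0.21. AFF1 rose from 2637 ± 218 to 7200 ± 551 and AFF4 by 0.35, while ELL2 had a log2 fold change of -1.04.

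Enzymes that supply or clear the methyl donor and 2-oxoglutarate were called lower for 9 of 19 and higher for 5, with a median of -0.13. IDH1 and IDH2, which make 2-oxoglutarate from isocitrate, fell from 38009 ± 755 to 9402 ± 216 and from 18519 ± 288 to 9518 ± 120, log2 fold changes of -2.02 and -0.96. AHCY, which clears the product S-adenosylhomocysteine, rose from 58252 ± 2973 to 73344 ± 3276, a log2 fold change of 0.33. MAT2A, which makes S-adenosylmethionine in most tissues, was not called, at -0.08.

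Related genes outside the symbol rule, 30 tested, were higher for 12 and lower for 8, with a median of 0.16. SETMAR, a SET domain joined to a transposase, rose from 1193 ± 167 to 3125 ± 114, and the JmjC oxygenase RIOX2 by 0.91. JMJD6 and JMJD7 had log2 fold changes of -1.13 and -1.01. The Polycomb H3K27 writers EZH2 and EZH1, outside that naming rule and given as the counterpart of KDM6A and KDM6B, had log2 fold changes of -0.49 and -0.36.

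**Figure D5:**
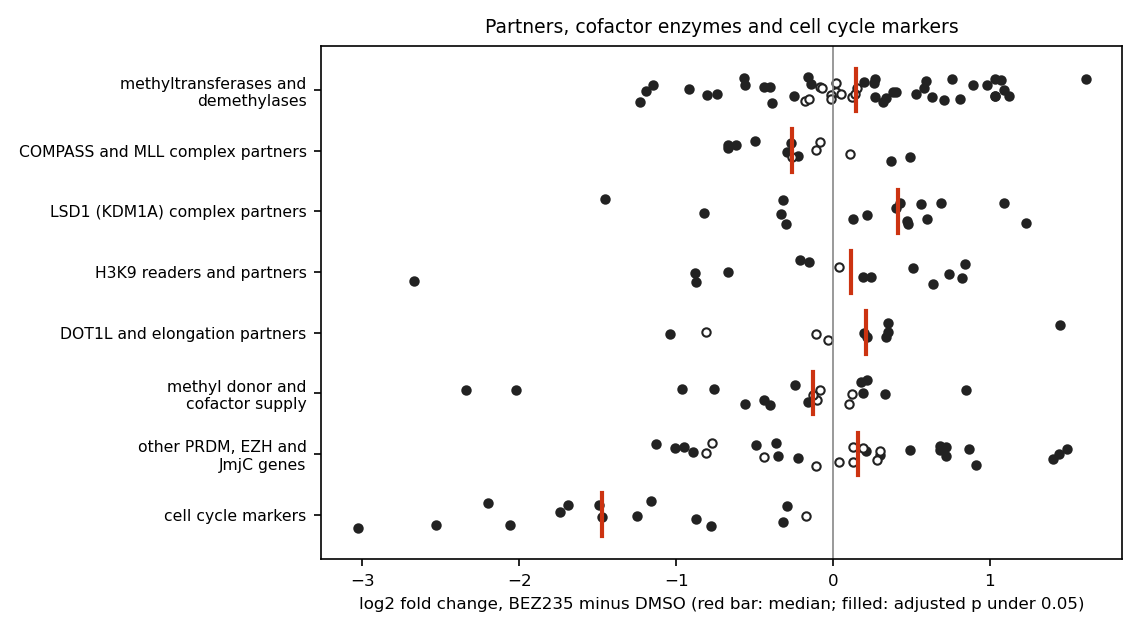
Log2 fold changes (horizontal axis) of the 50 tested members and of 7 context lists, 1 point per gene, filled where called, with a red bar at each median. The members' median lies at 0.14, the cell cycle markers lie lowest with a median of -1.47, and the partners of LSD1 have the highest median, 0.41.

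The promoter table held 48 of the 52 members, and SETD1B, DOT1L, NSD3 and KDM4E were not matched. Motifs were searched as exact letters on both strands in 250 bases before to 50 after the start: E2F sites as TTTCCCGC, TTTGGCGC, TTTCGCGC or TTTGCCGC, the cell cycle element CHR as TTTGAA, the E-box as CACGTG, the CCAAT box as CCAAT, the FOXO site as TGTTTAC, the cyclic AMP element as TGACGTCA and the amino acid response element as TTGCATCA. In the printed sequences no match overlaps another. A match describes the letters and is not a measured binding site.

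An E-box stood in the promoters of 5 of 23 members called higher (KMT2D, EHMT2, SETDB1, NSD1 and SETD6), in 0 of 12 called lower, and in 9 of all 48 members (18.8%), the others being SMYD4, KDM4B, KDM4C and KDM6A, which were not called. Among all 13596 tested genes with a promoter 9.47% had one, and among all 27305 promoters 7.43%. It lay 30 bases before the start in EHMT2, 48 in SETDB1 and 27 in NSD1, as the capitals in the printed sequences show. The start used for NSD1 lies 1217 bases upstream of the deposited row, so it lies outside the measured row. Those of EHMT2 and SETDB1 are the first base of the row, and that of KDM4C lies 41478 bases inside its row.

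A CCAAT box stood in 6 of 12 promoters of members called lower and in 3 of 23 called higher (13.0%). It stood in 16 of all 48 members (33.3%), the others being SETDB2, SMYD4, KDM2B, KDM3A, KDM4B, KDM4D and KDM6A, which were not called. The box was thus not limited to members that fell. Among all 13596 tested genes with a promoter 4901 had one, and among all 27305 promoters 9747. Of the 5 members that fell at least 1.5-fold and had a promoter, NSD2, KMT5A, SETD3 and KDM4A held one and SUV39H1 did not. In NSD2 it lies 96 bases before the start, between a CHR 135 bases before and the E2F letters TTTCCCGC 77 bases before. CHR letters stood in 10.3% of all tested genes and in 5 of all 48 members. Besides NSD2 these were PHF8, called lower, KDM2A, called higher, and SUV39H2 and KDM4D, not called. NSD2 was the only member called lower with E2F letters, which 4.9% of all tested genes held. The other member with E2F letters, KDM1B, was called higher. KMT5A has its CCAAT box 42 bases before the start and KDM4A has 3 in reverse, as ATTGG, 215, 71 and 38 bases before. Of the members called lower, SETD5, which held a CCAAT box, and KDM7A, which did not, have starts 16554 and 32132 bases inside their rows. With so few promoters the motif counts are descriptions, and none was tested.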

How the data were processed

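The authors deposited a signal that is never negative: gene read counts divided by a factor per library (normalized counts), with rows of FASTDB and hg38 coordinates, per the file headers. STAR 2.4.0, FastQC, Picard, SAMtools, DESeq and hg38 are named, per the submitters' processing notes, with no role. For the counting rule, strand and RNA selection: not given in the sources used here. Columns named as controls were matched to DMSO samples by number. Values were whole multiples of 1 step (0.835 to 1.16 normalized counts), which gave whole reads for 100.0% of values within 0.01.

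Rows with at least 10 normalized counts in at least 3 of 6 libraries (23923) entered limma 3.58.1 (R 4.3.3) with a mean-variance trend, on log2(value + 1), two-sided, with Benjamini-Hochberg adjustment at 0.05. This scale understates changes of low genes. Members past the threshold, changed at least 1.5-fold and averaging at least 100 normalized counts in either group, are given per library, as are KDM1A, KDM3A, KDM6A, KDM6B and SETD2 whatever they did. From each context list up to 2 genes per direction with the smallest adjusted p are named, except 1 that is not reported here; WDR5, MAT2A, EZH1, EZH2 and MKI67 were added after their values were seen. Members, lists, pairs and motifs were chosen with earlier results of these data known. The script was tested on simulated data. Of the members, 31 overlap another expressed row, and 11 overlap one with at least 50% of their level. Alternatives were other scalings, pseudocounts and filters, no trend, a replicate block, leaving out each library, and edgeR 4.0.16 and DESeq2 1.42.0 on the recovered reads.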

Additional observations from a re-analysis of the deposited data

How the results depend on the processing

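Over 17 alternatives the number of members called ran from 33 to 39, with 19 to 26 higher and 12 to 16 lower, and 18 to 21 changed at least 1.5-fold. Over all rows 14483 to 16102 were called. edgeR and DESeq2 on the recovered reads called 39 and 38 members, and 15744 and 15706 rows, against 38 and 15863. Leaving out each library gave 33 to 38 members called and 14483 to 15898 rows, with the lowest member count without BEZ235 replicate 3. For 31 members call and sign were kept in all 17 alternatives, and the 19 others are named with their values in the report or here. No member called in the limma test changed direction. Total-count scaling, under which the median of all rows moved by -0.096, gave 19 higher and 16 lower members.

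Values that crossed 0 belonged to members that were not called. With total-count scaling the log2 fold change was -0.07 for SMYD5, -0.05 for KDM1A and -0.07 for KDM3A, and with quantile normalization 0.06 for KDM4B and 0.06 for KDM6A. Without BEZ235 replicate 1 it was -0.00 for SMYD5 and -0.01 for KDM3A, and without BEZ235 replicate 2 it was -0.06 for KDM3A. Without BEZ235 replicate 3 it was 0.08 for KDM4B, 0.03 for KDM4D and 0.00 for KDM6A, and without DMSO replicate 2 it was 0.03 for KDM4B, 0.14 for KDM4D and 0.03 for KDM6A. Over the left-out libraries SMYD5 reached 0.04 and KDM4D -0.19 at their other ends (without BEZ235 replicate 3 and without DMSO replicate 3). The cause was not tested.

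With the replicate number as a block 38 members were called, 24 higher and 14 lower, and 15917 rows, and it ended no call among the members. Deviations of same-numbered libraries correlated at -0.038, 0.023 and 0.044, and those of differently numbered ones at -0.097 to 0.072. No effect shared by number was seen, which cannot settle whether the samples were handled in pairs. At this depth low members are the least precise: KDM5C had an SE of 0.336, while KDM3A, at a much higher level, had 0.0873.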
